A study of Mus musculus with 3 samples.

Results

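Tenm1, Gpc3, Dmd and Il1rapl1 are very long genes of the mouse X chromosome that are known for expression in restricted tissues. Xist recovery was followed along the body of each gene and in the 1 Mb on either side. A window belonged to a gene when its midpoint lay in the mm9 span of that gene, and windows that the authors flagged were left out. This gave 116 windows with a value, out of 195 that lay in the spans, 3987 with a value on the X and 94429 in the genome. Female cells silence 1 of their X chromosomes by coating it with Xist, a long noncoding RNA, and RNA antisense purification (RAP) pulls it down with biotinylated probes from crosslinked lysate together with the DNA it lies on. Female mouse embryonic stem cells (ESCs, strain 129SvJae) grown in 2i and LIF were differentiated in EpiLC medium, towards epiblast-like cells, for 2 days or for 4 days. There was 1 Xist pulldown library for each day, and the labels also name 1 input DNA library from day 2, which was not analysed here on its own. The labels name no genetic change or further treatment that would set the days apart. They give the same cells, medium and probes for both pulldowns and a different time of differentiation. With 1 library per day, time cannot be told apart from any other difference between the libraries.

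Xist is transcribed from a single place on the X and spreads in cis, meeting chromatin through its partners and bringing in the SPEN and Polycomb silencing machinery. Its spread is known to be uneven, with gene-rich stretches reached early and long gene-poor stretches later. Dmd encodes dystrophin, which ties the cytoskeleton of muscle fibres to the membrane complex outside it. Tenm1 encodes a teneurin, a transmembrane adhesion protein of developing neurons. Il1rapl1 encodes a synaptic adhesion protein of the interleukin-1 receptor family. Gpc3 encodes a glypican, a heparan sulfate proteoglycan of the cell surface that tunes growth factor signalling in the embryo. DNA recovered with Xist holds no expression value, so neither the restricted expression of these genes nor the identity of the cells could be checked in these data.

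The promoters of these genes differ widely in sequence, and those of Dmd and Gpc3 are shown because the ends of Dmd differed most in recovery and Gpc3 had the highest level. RefSeq (build GRCm38.p6) lists 2 promoters for Dmd and 1 for each of the other genes, as 300 bases from 250 before to 50 after the start. Capitals mark CpG dinucleotides. The positions are those of GRCm38 and were not used to place any mm9 value, and a 100 kb window does not resolve a promoter.
Dmd, promoter listed first in the direction of transcription, chrX:82948620-82948919, plus strand: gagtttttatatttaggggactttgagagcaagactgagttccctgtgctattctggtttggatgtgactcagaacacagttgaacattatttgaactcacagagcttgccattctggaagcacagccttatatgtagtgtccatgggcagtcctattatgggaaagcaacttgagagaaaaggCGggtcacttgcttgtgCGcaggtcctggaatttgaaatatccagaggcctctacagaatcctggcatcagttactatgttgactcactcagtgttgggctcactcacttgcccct
Dmd, promoter listed second, chrX:85048045-85048344, plus strand: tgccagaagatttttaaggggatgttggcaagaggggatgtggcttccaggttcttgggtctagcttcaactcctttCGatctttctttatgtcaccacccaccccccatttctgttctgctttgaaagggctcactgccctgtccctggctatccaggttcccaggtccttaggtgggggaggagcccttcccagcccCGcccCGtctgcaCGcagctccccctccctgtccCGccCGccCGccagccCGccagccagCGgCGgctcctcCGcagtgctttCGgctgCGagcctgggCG
Gpc3, chrX:52613925-52614224, minus strand: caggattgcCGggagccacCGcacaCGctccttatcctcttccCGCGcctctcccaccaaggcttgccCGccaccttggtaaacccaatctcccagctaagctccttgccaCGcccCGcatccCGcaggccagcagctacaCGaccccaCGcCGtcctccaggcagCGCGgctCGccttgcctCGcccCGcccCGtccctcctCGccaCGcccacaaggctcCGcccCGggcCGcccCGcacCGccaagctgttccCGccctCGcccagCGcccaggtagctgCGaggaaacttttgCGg

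The first Dmd promoter held 2 CpG dinucleotides and had a GC content of 45.7%, whereas the second held 14 with a GC content of 62.7%. The Gpc3 promoter held 30, more than 88.3% of the 32851 promoters in the table, whose median was 7 (quartiles 3 and 20). The Il1rapl1 entry held 7. The Tenm1 entry held none, as did 5.43% of all promoters. By the strands in the same table, Dmd is read towards higher coordinates and Tenm1, Gpc3 and Il1rapl1 towards lower ones, so that the 5′ end of Dmd is its centromere-proximal end and the 5′ end of the others is the distal end.

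Each value is an enrichment ratio for a window of 100 kb, moved in steps of 25 kb, so that a point of the genome enters 4 windows. With 1 library per day there was no replicate error and no test, and the read depth is unknown. Quartiles and ranges below describe windows, which overlap and are not replicates. The median enrichment on the X was 10.87 on day 2 (quartiles 5.37 and 17.6) and 16.58 on day 4 (9.07 and 22.3), against 0.38 and 0.29 over 90442 autosomal windows. Flagged windows had no value on either day and made up 40.2% of the X and 40.5% of the 4 spans, but they were shared out unevenly among the genes.

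The medians of the 4 genes stood on either side of the X median. Gpc3 lay above the X median throughout, Dmd near it on day 2, and Tenm1 and Il1rapl1 below it. All windows of the 4 genes stood above the 99th percentile of autosomal windows on both days, which was 1.58 on day 2 and 1.04 on day 4. That was also so for 99.3% of all X windows on day 2 and 100% on day 4. The lowest gene window on day 2, 4.24 in Tenm1, was 11.2 times the autosomal median.

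Gpc3 was the most enriched of the 4. Its span (49.63 to 49.97 Mb, 340 kb) held 13 windows and no flagged one. On day 2 the lowest window was at 16.32, the median at 17.87 and the highest at 19.25. On day 4 the corresponding values were 20.52, 21.7 and 23.36. All 13 windows were above the X median on both days, and the gene median stood at the 76.0th percentile of X windows on day 2 and at the 72.2nd on day 4. It was also the most even gene, with the highest window 1.18 times the lowest on day 2 and 1.14 times on day 4. Its span is the shortest, with 4 windows that do not overlap, so its evenness was not compared with the others at like length.

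Dmd had an intermediate median and the widest spread. Its span (80.19 to 82.45 Mb, 2260 kb) held 91 rows, of which 34 were flagged (37.4%) and 57 had a value. On day 2 the lowest window was at 7.18, the median at 10.96 and the highest at 23.28. On day 4 these were 7.73, 13.72 and 19.81. The day 2 median was 1.01 times that of the X and the day 4 median 0.828 times. Below the X median were 27 of its 57 windows on day 2 (47.4%) and 41 on day 4 (71.9%), beside 50% of all X windows on either day by construction.

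Il1rapl1 was low, but little of it was measured. Its span (83.99 to 85.36 Mb, 1370 kb) held 55 rows, of which 43 were flagged (78.2%), including an unbroken stretch of 700 kb from 84287501 to 84987500 in the middle of the gene. The 12 windows with a value ran from 5.83 through a median of 6.97 to 10.91 on day 2. On day 4 they ran from 8.03 through 12.1 to 13.89. Below the X median were 11 of 12 on day 2 and 12 of 12 on day 4. These values describe the ends of the gene and say nothing of its middle.

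Tenm1 had the lowest median on both days. Its span (39.88 to 40.78 Mb, 900 kb) held 36 rows, of which 2 were flagged and 34 had a value. On day 2 the lowest window was at 4.24, the median at 5.68 and the highest at 10.03, and on day 4 these were 8.0, 10.9 and 13.68. All 34 windows were below the X median on both days. Below the lower quartile of the X were 10 of 34 on day 2 (29.4%) and 7 on day 4 (20.6%). These shares were near the 25% of all X windows and do not set Tenm1 apart. The gene median stood at the 27.0th percentile of X windows on day 2 and at the 30.6th on day 4.

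**Figure D1:**
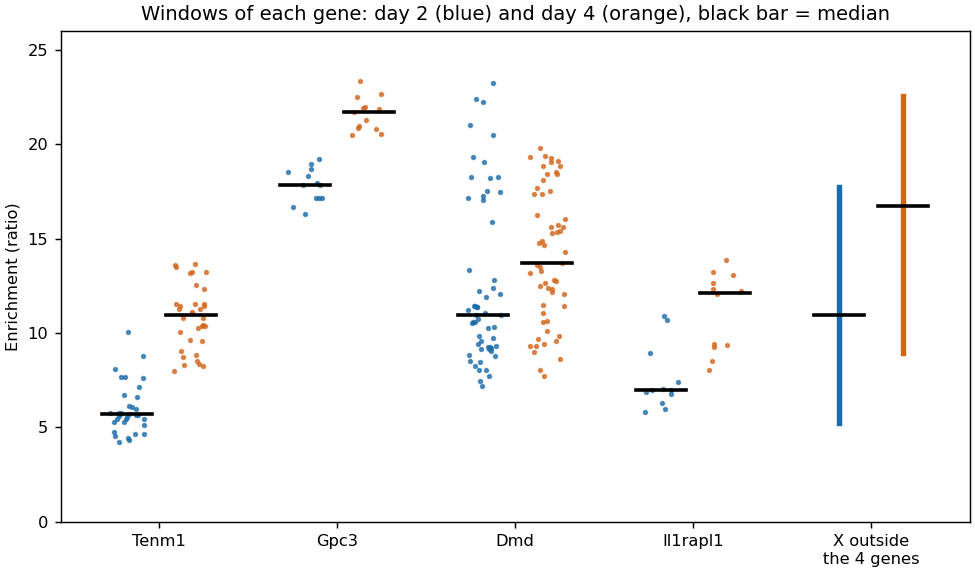
Enrichment (ratio, linear axis) of each window of Tenm1, Gpc3, Dmd and Il1rapl1 on day 2 (blue) and day 4 (orange), with the median as a black bar; for the X outside the 4 genes the coloured bars are quartiles. Gpc3 forms a compact group with medians of 17.87 and 21.7, Dmd is spread from 7.18 to 23.28 on day 2, and the medians of Tenm1 and Il1rapl1 lie below the X median.

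The order of the medians was Gpc3, Dmd, Il1rapl1 and Tenm1 on both days, and the distance between them was smaller on day 4. On day 2 Gpc3 was 3.15 times Tenm1, and on day 4 it was 1.98 times. Neighbours in the order were separated by 1.63-fold (Gpc3 over Dmd), 1.57-fold (Dmd over Il1rapl1) and 1.23-fold (Il1rapl1 over Tenm1) on day 2. On day 4 the same steps were 1.58-fold, 1.13-fold and 1.11-fold. On day 2 the quartiles of no 2 genes overlapped, although the full ranges of Dmd and Gpc3, of Dmd and Il1rapl1, of Dmd and Tenm1 and of Il1rapl1 and Tenm1 did. On day 4 the quartiles of Dmd, Il1rapl1 and Tenm1 overlapped one another, so their order was not separated beyond the spread of their windows, while even the ranges of Gpc3 and the other genes did not meet. The genes most alike in level were therefore Il1rapl1 and Tenm1, which differed by 0.29 on the log2 scale on day 2 and by 0.15 on day 4.

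Dmd was not one level but several. Each gene body was divided into 5 equal parts in ascending coordinates, which for Dmd run from the 5′ end of the full-length transcript to the 3′ end. On day 2 the medians of the 5 parts of Dmd were 9.84, 8.27, 9.25, 11.38 and 18.24. On day 4 they were 9.83, 11.9, 12.6, 13.72 and 18.45. The last part, 452 kb at the 3′ end with 19 windows, was 1.68 times the X median on day 2 and 1.11 times on day 4, whereas the first was 0.905 and 0.593 times. The highest Dmd window on day 2 lay in the last part, at 82312501 to 82337500, with 23.28, and all 10 Dmd windows above the upper quartile of the X were there. On day 4 no Dmd window exceeded that quartile, and the highest, 19.81, was at the very end of the span. The lowest window was at 80887501 to 80912500 on day 2 and was the first of the gene, at 80187501 to 80212500, on day 4. The second Dmd promoter shown above lies within the gene, far downstream of the first (85048045 against 82948620 in GRCm38). It was not placed in mm9, so its position relative to the higher last part was not tested.

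The slope along Dmd was present on both days. Over 15 windows without overlap, the Spearman rho of position and enrichment was 0.78 on day 2 and 0.87 on day 4, and rho between the days was 0.88; these describe 1 library per day and windows of 1 gene. The middle of the gene was thinly covered. The third part held 4 windows out of 18 rows and the fourth 7 of 18, with an unbroken flagged stretch of 450 kb from 80962501 to 81412500. The first to the fourth part together had a median of 9.65 on day 2 and 12.3 on day 4 over 38 windows, so the Dmd median of the whole gene mixes a long low part with a shorter high one.

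Tenm1 sloped the other way. Its 5 parts, of 180 kb each, had medians of 7.67, 5.74, 5.45, 5.44 and 4.63 on day 2 and of 13.23, 11.09, 10.3, 11.41 and 8.37 on day 4. The highest window was the first of the span on both days, and the lowest was at 40587501 to 40612500 on both days. Since Tenm1 is read towards lower coordinates, the higher end is its 3′ end, as in Dmd. In Gpc3 and Il1rapl1 the highest window lay towards the 5′ end on day 2 and towards the 3′ end on day 4. A link with the direction of transcription was not tested.

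Within Gpc3 the days leaned in opposite directions, by little. Its day 2 medians were 17.16, 16.69, 18.34, 17.94 and 19.1 from the centromere-proximal to the distal part, and the day 4 medians were 22.6, 20.97, 22.49, 20.87 and 20.9. The highest window lay in the last part on day 2 and in the first on day 4. Each part is 68 kb long, shorter than a window, so the parts share much of their sequence.

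For Il1rapl1 the first part had 6 windows with a median of 6.97 on day 2 and 12.8 on day 4. The fourth had 2 windows, with medians of 5.9 and 8.27, and the last had 3, with 10.68 and 9.34. The second part held a single window and the third none. The distal end, which is the 5′ end, held the highest window of the gene on day 2 (10.91, at 85337501 to 85362500), whereas on day 4 the highest lay near the 3′ end (13.89, at 84187501 to 84212500).

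**Figure D2:**
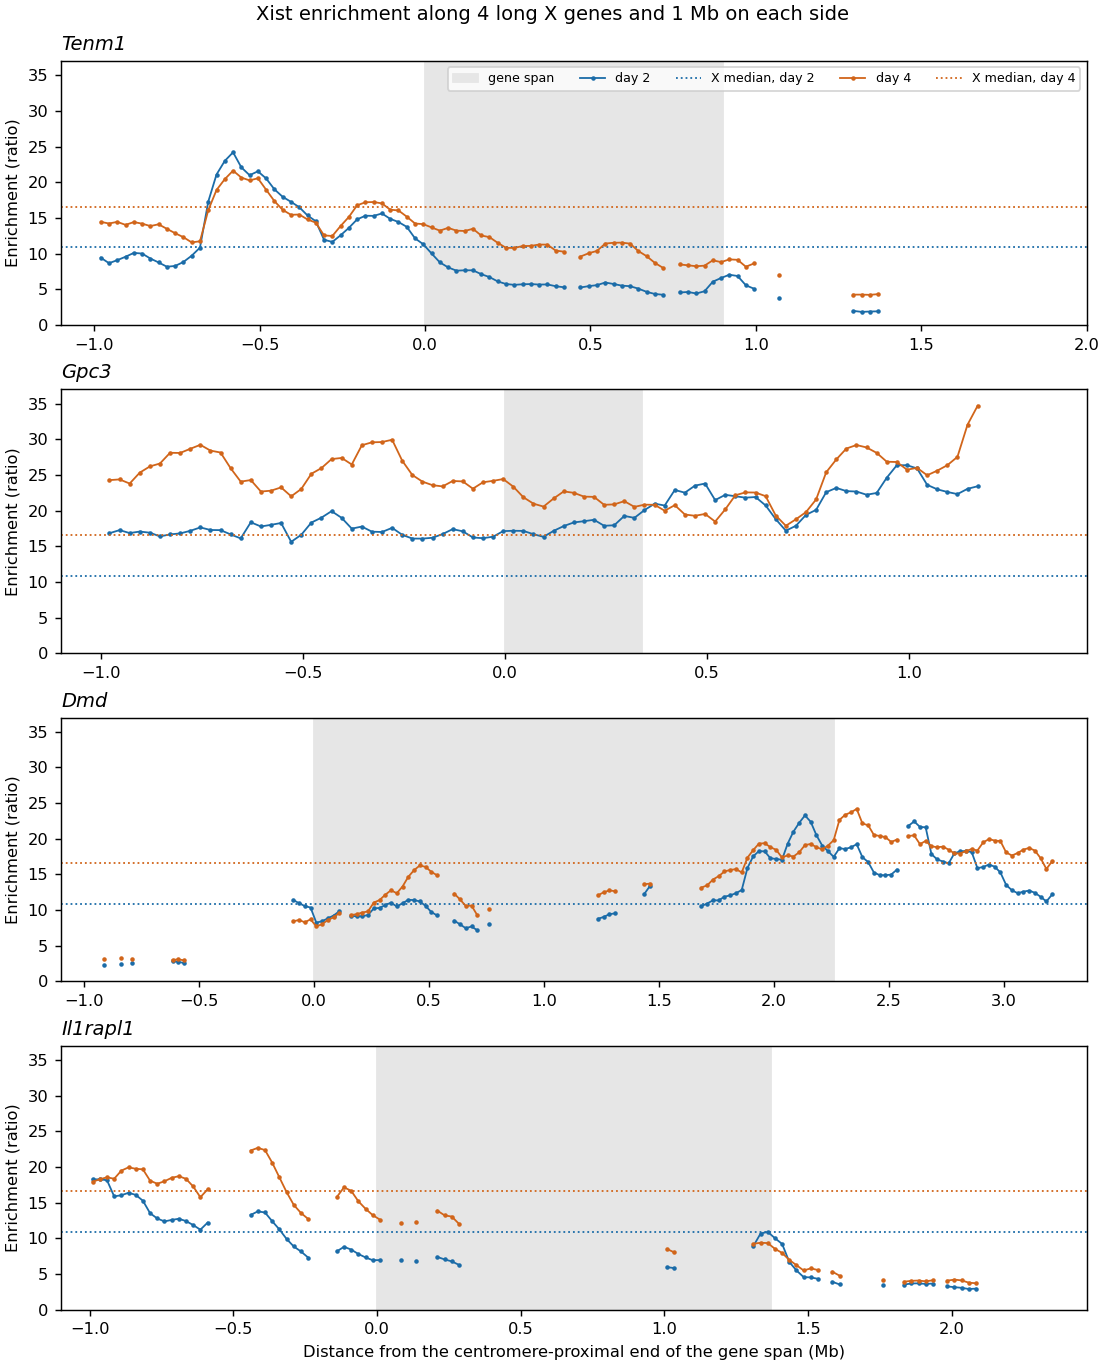
Enrichment (ratio) on day 2 (blue) and day 4 (orange) against the distance in Mb from the centromere-proximal end of each gene span, 1 point per window; the span is shaded, gaps are flagged windows and dotted lines are the X medians of 10.87 and 16.58. Tenm1 lies on a falling slope, Dmd on a rising one with its highest day 2 value of 23.28 near its 3′ end, and Gpc3 in a high plateau, while the middle of Il1rapl1 has no values.

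The next question was whether the gene bodies stood apart from the DNA beside them. Taken over both sides together, every body had a lower median than the rows up to 1 Mb outside it, but the sides differed so much for Tenm1, Dmd and Il1rapl1 that the body lay between them. On day 2 Tenm1 had a body median of 5.68, against 14.1 on the centromere-proximal side (40 windows) and 3.75 on the distal side (9 windows of 40 rows). On day 4 the values were 10.9, 14.98 and 7.02. The highest values of the flanks lay between 400 and 600 kb from the span on the centromere-proximal side, up to 24.21 on day 2 and 21.64 on day 4. All 34 Tenm1 windows were below the median of the one side and above that of the other on both days. RefSeq lists Sh2d1a, Tex13d and Stag2 as the nearest protein-coding genes on the higher side and Tex13c1, Dcaf12l2 and Dcaf12l1 on the lower side. Stag2 encodes a subunit of cohesin that most cells express.

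Il1rapl1 had the same arrangement. On day 2 its body median of 6.97 lay between 12.42 on the centromere-proximal side (32 windows) and 3.68 on the distal side (20 windows). On day 4 its 12.1 lay between 18.05 and 4.18, and all 12 body windows were below the one and above the other. The neighbours on the higher side are Mageb4, Nr0b1 and Samt3, of which Nr0b1 encodes a nuclear receptor expressed in ESCs. Those on the lower side are Gm52437, Dcaf8l and Gm52448.

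For Dmd the low side was the centromere-proximal one. Its body median of 10.96 on day 2 lay between 2.81 there (10 windows of 40 rows) and 16.39 on the distal side (37 windows). On day 4, 13.72 lay between 3.20 and 19.26. The step on the low side was not at the edge of the gene: the 4 windows with a value within 200 kb of the span had a median of 10.8 on day 2 and 8.53 on day 4, the next 200 kb had no value, and between 400 and 600 kb the median was 2.67 and 3.03. The distal side leads through Fthl17a, Tab3 and Gk, the last 2 of which encode an adaptor of the TAK1 kinase and glycerol kinase. RefSeq also lists the protein-coding genes Tsga8, Gm46696 and Gm52441 within Dmd, and their windows were not separated from the Dmd body. The DNA between Dmd and Il1rapl1, 1540 kb, had a median of 14.9 on day 2 and 18.8 on day 4 (52 windows). Both genes were lower than this on both days, except for the last part of Dmd on day 2, at 18.24. The stretch is shorter than 2 flanks of 1 Mb. The distal flank of Dmd and the centromere-proximal flank of Il1rapl1 therefore share some windows and are not separate observations.

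Gpc3 differed less from its surroundings than the other genes did. On day 2 its median of 17.87 stood beside 17.1 on the centromere-proximal side (40 windows), where Gpc4, the paralogous glypican gene, is the nearest neighbour, and 22.5 on the distal side (34 windows), towards Ccdc160, Phf6 and Hprt. On day 4 its 21.7 stood beside 25.1 and 22.5. All 13 Gpc3 windows were below the distal median on day 2 and below the centromere-proximal median on day 4. Below the median of the other side were 2 of 13 on day 2 and 11 of 13 on day 4. Against both sides together the log2 ratio of body to flank was -0.03 on day 2 and -0.19 on day 4. The corresponding values were -1.07 and -0.39 for Tenm1, -0.48 and -0.44 for Dmd and -0.34 and -0.35 for Il1rapl1. The sign of these ratios rested on which side was taken: against the distal side alone Tenm1 (0.60 and 0.64) and Il1rapl1 (0.92 and 1.54) were higher than their flank, and against the centromere-proximal side alone Dmd was (1.97 and 2.10). With flagged rows counted as 0 the day 4 ratios were 0.057 for Tenm1 and 0.34 for Dmd, and for Gpc3 on day 2 the ratio was 0.0040. Of the ratios to both sides, that of Tenm1 was closer to 0 on day 4, when the body reached 0.763 of its flanks against 0.475 on day 2.

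The borders of the genes were then compared directly. Windows centred about 50 kb inside and 50 kb outside each end were compared, which do not overlap, and the 3294 pairs of X windows at the same distance served as the background. These pairs had a median absolute log2 ratio of 0.20 on day 2 and 0.16 on day 4. The largest border step was at the centromere-proximal end of Tenm1 on day 2, from 13.76 outside to 8.78 inside, a log2 ratio of -0.65, larger than 92.8% of X steps. On day 4 the same border went from 15.19 to 13.23 (log2 ratio -0.20, larger than 60.6%). At the distal end of Tenm1 the windows went from 4.73 inside to 6.87 outside on day 2 (log2 ratio -0.54, larger than 88.7%). On day 4 they went from 8.32 inside to 9.14 outside (log2 ratio -0.14, larger than 44.8%). At both ends of Tenm1 the window inside was the lower of the pair on both days. The body median of Tenm1, however, lay above that of its distal side on both days. At the 3′ end of Dmd the values were 19.06 inside and 18.57 outside on day 2 (log2 ratio 0.04). On day 4 they were 18.52 and 23.37 (-0.34, larger than 83.5%). The step at the 5′ end of Dmd was larger than 60.8% of X steps on day 2 and 19.7% on day 4. The centromere-proximal step of Gpc3 was larger than 24.0% of X steps on day 2 and 44.05% on day 4. Its distal step was larger than 28.5% and 31.8%. The distal end of Il1rapl1 went from 8.93 inside to 9.22 outside on day 2 and from 9.24 inside to 7.96 outside on day 4 (log2 ratio 0.22, larger than 64.3%), and its other end had no pair of values.

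The last comparison set day 4 against day 2. Both days were first scaled to their own autosomal medians, because the autosomal median was lower on day 4 (0.29) than on day 2 (0.38). Tenm1 and Il1rapl1, the lower genes on day 2, had the larger day 4 over day 2 folds, and Gpc3 and Dmd the smaller. The fold is computed from the day 2 value and is not independent of it. How far this bears on the order of the genes was not tested. Tenm1 had a median log2 ratio of 1.30 over its windows (quartiles 1.205 and 1.35), a fold of 2.45. Il1rapl1 had 1.22 (0.75 and 1.30), a fold of 2.32. Gpc3 had 0.68 (0.61 and 0.73), a fold of 1.61, and Dmd 0.57 (0.43 and 0.77), a fold of 1.49. The X median was 0.88, a fold of 1.83, so that 2 of the genes lay on either side of it.

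A share of 41.3% of all X windows was at least 2-fold higher on day 4 by this measure. In Tenm1 30 of 34 windows were (88.2%), in Il1rapl1 7 of 12 (58.3%), in Dmd 2 of 57 (3.51%) and in Gpc3 0 of 13. These shares depend on the scaling: without it 17.6% of Tenm1 windows and 0% of Il1rapl1 windows were 2-fold higher, beside 17% of all X windows. With each day divided by its X median none of either gene was, beside 0.652% of the X. All windows of the 4 genes were above 0 on this scale, as were 97.9% of X windows. In the deposited ratios, without scaling, all 34 windows of Tenm1 and all 13 of Gpc3 were higher on day 4, 45 of 57 in Dmd and 10 of 12 in Il1rapl1, against 82.7% on the X. The unscaled median folds were 1.87 in Tenm1, 1.77 in Il1rapl1, 1.23 in Gpc3 and 1.13 in Dmd, and 1.40 on the X. With each day divided by its X median, the log2 ratios of Gpc3 and Dmd were -0.31 and -0.43 and those of Tenm1 and Il1rapl1 0.30 and 0.22, so the direction for Gpc3 and Dmd depends on the scaling.

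The fold was uneven along Dmd and Il1rapl1. In Dmd the medians of the 5 parts were 1.38-fold, 1.89-fold, 1.79-fold, 1.63-fold and 1.38-fold relative to the autosomes, lowest at both ends. Without scaling the first and the last part were at 1.06 and 1.05. The smallest scaled fold, 1.07, lay at 82287501 to 82312500, beside the highest day 2 window, and the largest, 2.11, at 80712501 to 80737500. In Il1rapl1 the 7 windows of the centromere-proximal end had a fold of 2.46 and the 5 nearer the distal end 1.36. The last 3 windows, where the day 2 level was highest, had 1.15, which is 0.879 without scaling. In Tenm1 the parts ranged only from 2.25-fold to 2.66-fold, and in Gpc3 they went from 1.73-fold to 1.43-fold in ascending coordinates.

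**Figure D3:**
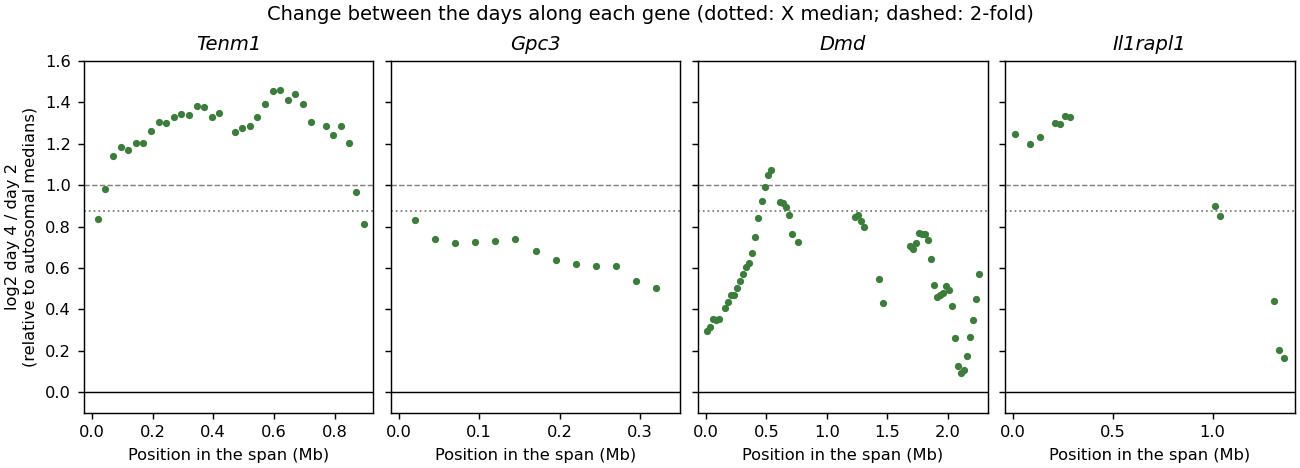
Log2 of day 4 over day 2, each divided by its autosomal median, against the position in Mb within each gene span, 1 point per window; the dotted line is the X median of 0.88 and the dashed line a 2-fold difference. Tenm1, apart from its first and last window, and the centromere-proximal part of Il1rapl1 lie above the dotted line, Gpc3 lies below it, and Dmd is lowest near both ends.

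Dmd and Il1rapl1 lie in the part of the X from 60 to 95 Mb. Its 629 other windows had a day 2 median of 12.65, a day 4 median of 17.47 and a fold of 1.75 relative to the autosomes. Dmd, at 10.96 and 13.72, was below these medians on both days, and its fold of 1.49 was smaller. Il1rapl1 was lower still in level, at 6.97 and 12.1, with a larger fold of 2.32.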

How the data were processed

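The build was mm9 and the tools included bedtools, Picard, SAMtools 1.2, Bowtie2 2.2.9 and Trim Galore 0.4.1, per the submitters' processing notes, which state no settings. The authors deposited 1 enrichment ratio per row and library, rounded to 2 decimals, and a flag (another deposited column) of 0 or 1; the ratio was 0 in rows with flag 1. The ratio is taken to be pulldown over input; the input used for day 4 and the scaling are not stated in these sources. Each row of 25 kb is taken to stand for the 100 kb window around it.

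Rows were given to a gene by midpoint, with spans rounded to 0.01 Mb; no other gene has an mm9 position here, so neighbours are named from the order in RefSeq (GRCm38) and carry no value. Medians, quartiles and log2 ratios (no pseudocount) were computed with Python 3.11.15, numpy 2.4.6, pandas 2.3.3 and scipy 1.17.1. Spearman's rho used 1 row in 4. The functions were tested on 50 simulated profiles over the 3987 X windows. Each had a flat level per span, flat flanks and independent noise with a standard deviation of 0.1 on the log2 scale. The largest error was 0.079 for a log2 ratio of the days and 0.1 for one of body to flank. The real windows overlap and slope, so these errors check the code and do not give the accuracy of the values here. All 4 genes were named, and the 3 nearest protein-coding genes on each side, with those that RefSeq lists within Dmd. The members and lists were chosen with earlier results of these data known; the border pairs, the 200 kb bins outside the spans, the promoter features and the stretches compared within Dmd and Il1rapl1 were added after the values were seen. Alternatives concerned the choice of windows, flagged rows, mean or median, the flank and the scaling.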

Additional observations from a re-analysis of the deposited data

How the results depend on the processing

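Of 322 alternative values for 40 results, 274 stayed within the spread over the windows of the gene, 32 moved further and 16 changed sign. For shares the spread was the exact 95% binomial interval at the number of windows divided by 4. That number and the share were rounded to whole windows, so the interval is rough, and it is wide where windows are few. For the share of Il1rapl1 windows below the X median on day 2 it ran from 29.2% to 100%. The 50% from windows without overlap at offset 1, against 91.7% as reported, therefore counted as within it. Windows are not replicates, so these counts do not measure error. Windows taken whole within the span kept 39 of 40 values, the share of Tenm1 windows 2-fold higher on day 4 being 100%. Windows without overlap kept 153 of 160: for Il1rapl1, offset 1 gave a day 2 level of 8.85 (0.814 of the X), a body over flank of 0.11 and a day ratio of 0.75, offset 2 a 2-fold share of 100%, and for Gpc3 on day 2 the log2 body over flank was 0.080 and 0.00040. These rest on few windows.

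Flagged rows counted as 0 lower the X median, so levels relative to it on days 2 and 4 were 1.57 and 1.70 for Tenm1, 4.95 and 3.41 for Gpc3, 2.53 and 1.67 for Dmd, and the level and the relative level were 0 for Il1rapl1 on both days, with no flank ratio. The log2 body over flank was then -0.43 and 0.057 for Tenm1, 0.0040 on day 2 for Gpc3 and 0.34 on day 4 for Dmd.

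The side taken as flank turned the sign of body over flank for Tenm1, Dmd and Il1rapl1 on both days and for Gpc3 on day 2. Against the distal side alone it was 0.60 and 0.64 for Tenm1, 0.92 and 1.54 for Il1rapl1, and -0.33 and -0.055 for Gpc3. Against the centromere-proximal side alone it was 1.97 and 2.10 for Dmd, 0.068 on day 2 for Gpc3 and -0.83 on day 2 for Il1rapl1. With 2 Mb on day 2 it was -0.58 for Tenm1, 0.0089 for Gpc3 and -0.84 for Il1rapl1, with 0.5 Mb on day 4 -0.11 for Gpc3, and with means -0.13 for Gpc3 on day 2.

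Without scaling the log2 day ratio was 0.91 for Tenm1, 0.29 for Gpc3 and 0.18 for Dmd, and the 2-fold share 17.6% for Tenm1 and 0% for Il1rapl1 (17% on the X). Divided by the X median the ratio was 0.30, -0.31, -0.43 and 0.22 for Tenm1, Gpc3, Dmd and Il1rapl1, with a 2-fold share of 0% for Tenm1 and Il1rapl1 (0.652% on the X). No paired analysis was possible because only 1 library exists per day here; for the same reason no library could be left out.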
